A study of Peromyscus maniculatus and Peromyscus polionotus and Peromyscus maniculatus x Peromyscus polionotus with 18 samples.

Results

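Serotonin system genes were followed in whole brains of deer mice. The set held the synthesis enzyme gene Tph2, the serotonin transporter gene Slc6a4, the raphe transcription factor gene Fev and the receptor genes Htr1a, Htr1b, Htr2a, Htr2c, Htr3a, Htr4 and Htr7. Members were listed by name, with earlier results of these data known, and were found by symbol without regard to case. Of these 10 genes, 9 were among the 20731 gene rows of the table for the parental species, and 6 (Tph2, Slc6a4, Htr1b, Htr3a, Htr4 and Htr7) were among the 11928 rows of the table for the hybrids. Htr2a was not analysed here, and Fev, Htr1a and Htr2c were not analysed in the hybrids.

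Serotonin is made by neurons of the raphe nuclei, a string of small cell groups in the midbrain and hindbrain whose fibres reach most of the brain. TPH2 makes the transmitter's precursor in these neurons, the transporter SLC6A4 takes released serotonin back up, and FEV (also called PET1) is a transcription factor that in the laboratory mouse gives raphe neurons their identity. The receptors sit on raphe neurons and on their target cells. HTR1A and HTR1B couple to inhibitory G proteins, HTR2C to phospholipase C, HTR4 and HTR7 to stimulatory G proteins, and HTR3A is a subunit of a ligand-gated ion channel.

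RNA was measured in 18 libraries, 3 in each of 6 groups. The groups were *Peromyscus polionotus* after a burrowing trial and after a control trial, *P. maniculatus* after a burrowing trial and after a control trial, and F1 hybrids of both species after a burrowing trial and after a control trial. All animals were males about 50 to 80 days old that had been through 2 earlier trials in sand-filled enclosures and were assigned to a trial at random, and brains were taken as the test trial ended. Parents were given as TPM, a transcript level scaled for length and for the library's total, and hybrids as counts of reads assigned to the polionotus or the maniculatus allele.

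The oldfield mouse *P. polionotus* digs long burrows that include an escape tunnel, whereas burrows of the deer mouse *P. maniculatus* are short and simple. The design asks which brain genes differ between them, respond to digging or differ between alleles. Summed TPM of the general neuron markers Snap25, Syt1, Rbfox3 and Map2 were 623 to 734 in *P. polionotus* and 697 to 780 in *P. maniculatus*. Hindbrain and spinal cord genes set 2 libraries apart: summed TPM of 15 such genes, most of them Hox genes, were 9.97 in polionotus control replicate 2 and 21.5 in polionotus control replicate 3, against 38.5 to 59.8 in the other libraries. No gene of that list was at 0 in every library. Raphe neurons lie in the midbrain and hindbrain. For members of the set, called results that touch those libraries are therefore given with and without them, as is the trial comparison in *P. polionotus*. Whole brain was sampled, so fewer cells of a type and less RNA per cell cannot be told apart.

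By TPM, the inhibitory receptors had the highest levels among the serotonin genes, and the raphe genes were low. Averaged over the 12 parental libraries, Htr1a was at 87.0 TPM (range 77.7 to 100.5) and Htr1b at 67.8 TPM (53.3 to 84.9). Htr2c followed at 4.58 TPM (3.36 to 5.20), with no library reaching the range of Htr1b. Below it came Slc6a4 at 2.61 TPM (1.98 to 3.82), Htr3a at 1.84 TPM (1.19 to 2.49), Htr7 at 1.46 TPM (1.28 to 1.62), Fev at 1.13 TPM (0.741 to 1.52) and Tph2 at 0.976 TPM (0.696 to 1.38), each with a range that overlapped that of the next. Htr4 was lowest at 0.413 TPM (0.337 to 0.571), and its range did not reach that of Tph2. The ranges of Htr1a and Htr1b overlapped, but within every library Htr1a was above Htr1b. Hybrid counts, scaled to the total of allele-assigned reads (CPM) but not for length, put Htr1b below Slc6a4. Htr1b averaged 6.39 CPM in burrowing and 6.18 CPM in control hybrids, against 27.6 and 27.1 CPM for Slc6a4. The order of these genes thus depends on the measure, and which order holds for transcript numbers was not tested.

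**Figure D1:**
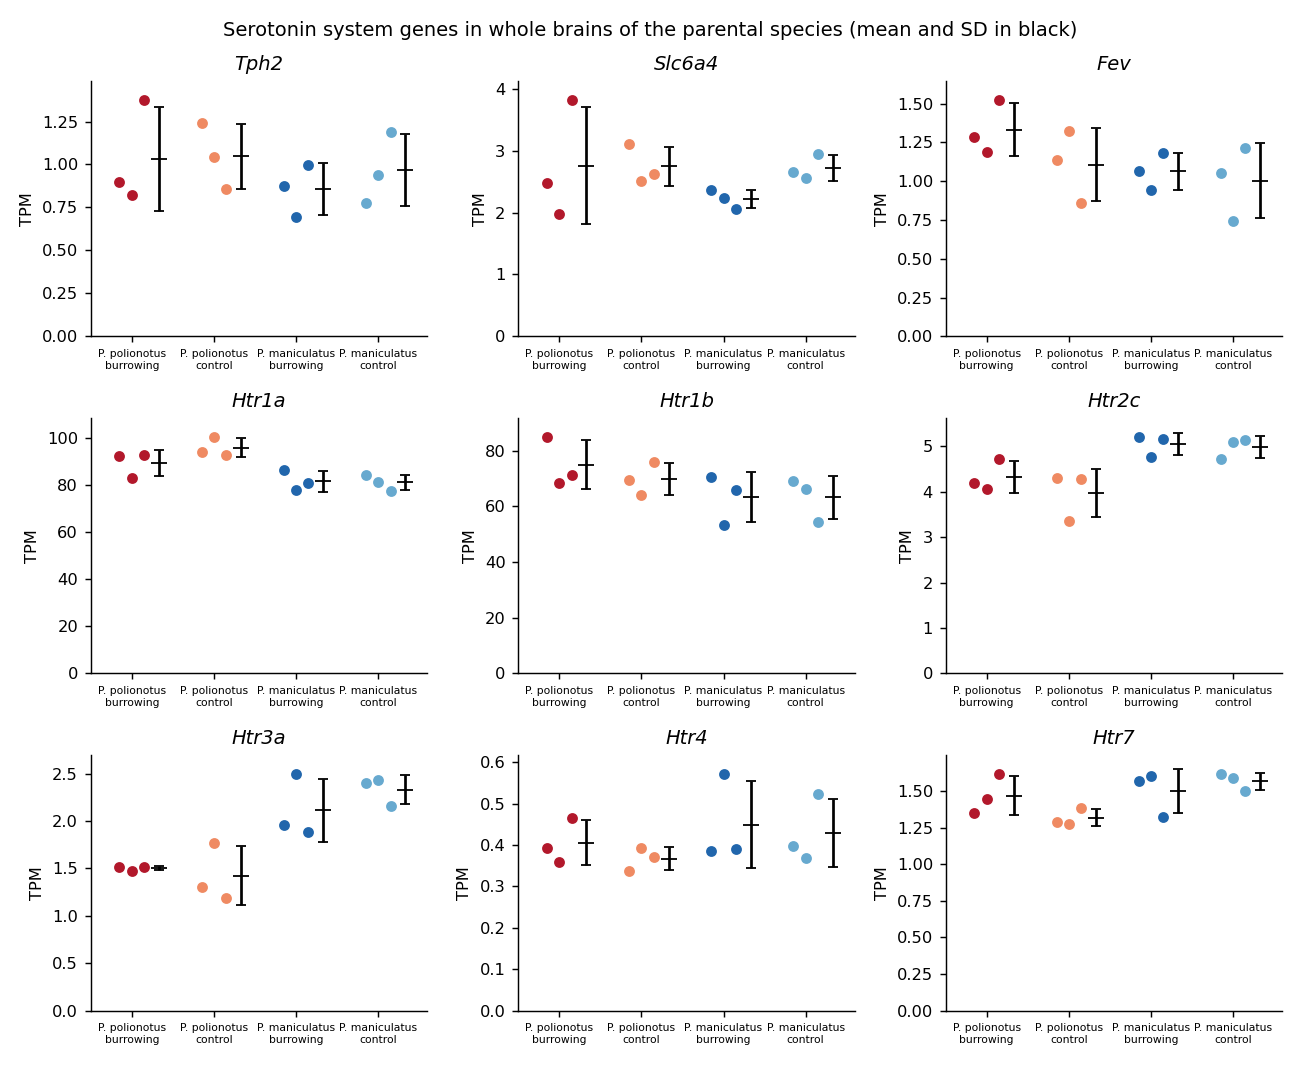
TPM (vertical axis, from 0) of the 9 serotonin genes in each parental library, by species and trial, with the group mean and SD (n = 3 libraries) in black. The 6 polionotus libraries lie at or below 1.77 TPM for Htr3a, and the 6 maniculatus libraries at or above 1.88 TPM; for the other 8 genes the species ranges overlap.

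The first question was how the complex burrower differs from the simple one. Of the 7 serotonin genes that averaged 1 TPM or more, 3 were called over both trials: the receptor genes Htr3a and Htr2c were lower in *P. polionotus* and Htr1a was higher. Calls are at a Benjamini-Hochberg adjusted p under 0.05 in limma on log2(TPM + 1), adjusted over 14366 genes. Across all these genes 52.4% were called (32.6% as higher in *P. polionotus* and 19.8% as lower), so the members' share was not above the background. With quantile normalization the calls over all genes were 3826 higher and 3857 lower, and with median scaling 3786 higher and 3897 lower, against 4688 higher and 2841 lower as deposited. The median log2 difference of the 7 genes was 0.10, against 0.06 over all genes tested.

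Htr3a, the subunit that every functional 5-HT3 receptor channel needs, showed the largest difference of the 9 genes. It was at 1.52, 1.48 and 1.52 TPM in polionotus burrowing brains and 1.30, 1.77 and 1.19 TPM in polionotus control brains. In *P. maniculatus* it was at 1.96, 2.49 and 1.88 TPM after burrowing and 2.41, 2.43 and 2.15 TPM in controls. No polionotus library reached the maniculatus range, a separation that 32.8% of all tested genes also showed and no other of the 7 serotonin genes did. The means were 1.46 ± 0.201 TPM in polionotus brains, against 2.22 ± 0.260 TPM in maniculatus brains (SD, n = 6 libraries each), a difference of -0.39 in log2(TPM + 1) (SE 0.07, 95% interval -0.55 to -0.23, limma adjusted p = 0.00109). Leaving out any single library kept the call, with differences from -0.44 to -0.34, and without polionotus control replicates 2 and 3 together it was -0.42 (limma adjusted p = 0.00239). In the cortex of the laboratory mouse Htr3a marks a class of inhibitory interneurons. Of 7 markers of such interneurons 6 could be tested; in *P. polionotus* 2 were higher and 0 lower by the same test, and their summed TPM were 339 to 511 in *P. polionotus* and 391 to 462 in *P. maniculatus*. The part of these cells in the Htr3a result was not tested.

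Htr2c, a receptor abundant in choroid plexus epithelium and in some neurons, was the other gene lower in *P. polionotus*. It was at 4.18, 4.05 and 4.72 TPM in polionotus burrowing brains and 4.29, 3.36 and 4.27 TPM in polionotus control brains, against 5.20, 4.76 and 5.16 TPM in maniculatus burrowing brains and 4.71, 5.10 and 5.13 TPM in maniculatus control brains. The highest polionotus library just passed the lowest maniculatus one. The means were 4.15 ± 0.445 TPM in polionotus brains, against 5.01 ± 0.217 TPM in maniculatus brains (SD, n = 6 each), a log2(TPM + 1) difference of -0.23 (SE 0.06, limma adjusted p = 0.00956). Polionotus control replicate 2, the library with the lowest hindbrain sum, also had the lowest Htr2c. Polionotus control replicate 3, with the next lowest sum, was at 4.27 TPM, above polionotus burrowing replicates 1 and 2. With the mean log2 level of the hindbrain genes as a covariate the species difference was -0.15 and was no longer called (limma adjusted p = 0.0612). Without polionotus control replicates 2 and 3 it was -0.18. Summed TPM of 8 choroid plexus genes (Ttr, Kl and others, none at 0 in every library) were 1322 to 2076 in *P. polionotus* and 1154 to 1479 in *P. maniculatus*. Of 7 of them tested, 1 was called higher and 2 lower. The part of choroid plexus tissue in the Htr2c result was not tested.

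Htr1a, the autoreceptor on raphe cell bodies and a receptor of hippocampal and cortical neurons, was higher in *P. polionotus*. It was at 92.4, 83 and 92.8 TPM in polionotus burrowing brains and 94.3, 100.5 and 92.9 TPM in polionotus control brains, against 86.5, 77.8 and 80.8 TPM in maniculatus burrowing brains and 84.3, 81.6 and 77.7 TPM in maniculatus control brains. The species overlapped through 1 polionotus library, burrowing replicate 2. The means were 92.7 ± 5.61 TPM in polionotus brains, against 81.4 ± 3.51 TPM in maniculatus brains (SD, n = 6 each), a log2(TPM + 1) difference of 0.18 (SE 0.05, limma adjusted p = 0.00613). With median scaling the difference was 0.11 and was not called (limma adjusted p = 0.0881), and without polionotus control replicates 2 and 3 it was 0.17 and was called (limma adjusted p = 0.0344). Among 7 markers of excitatory cortical and hippocampal neurons in *P. polionotus* 3 were higher and 2 lower by the same test, and their sums overlapped (1234 to 1524 TPM in polionotus brains, against 1217 to 1518 TPM in maniculatus brains).

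**Figure D2:**
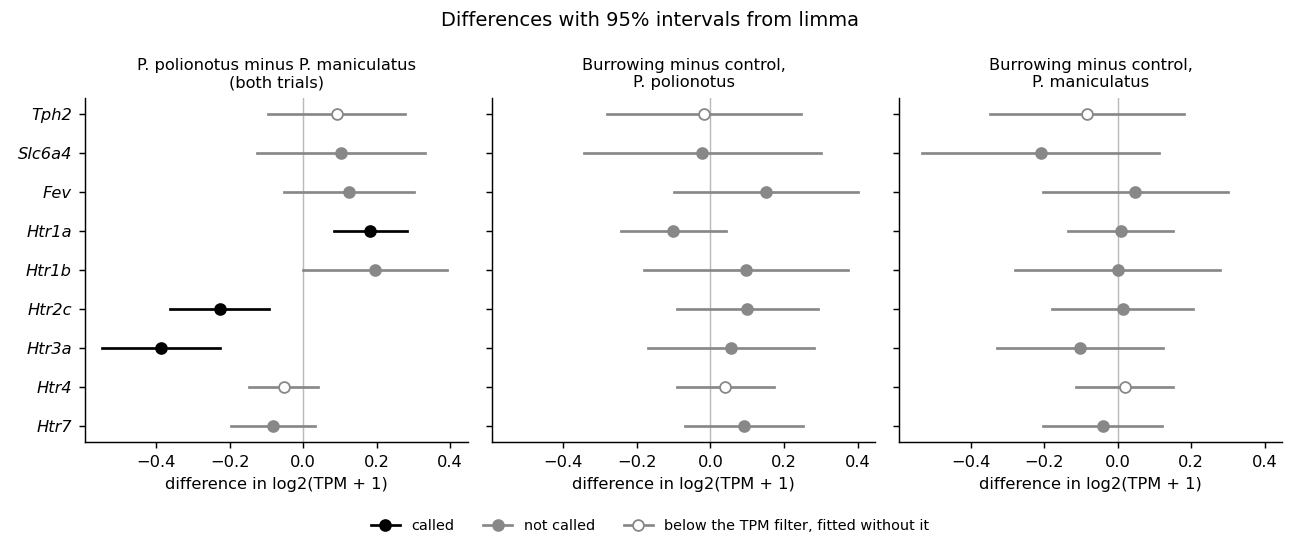
Differences in log2(TPM + 1) with 95% intervals from limma for the 9 serotonin genes, between species and between trials within each species. Htr1a, Htr2c and Htr3a (black) were called between species, no gene was called between trials, and Tph2 and Htr4 (open circles) lay below the level filter and were fitted without it.

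The raphe genes Tph2, Slc6a4 and Fev were not called between species. Tph2 was at 0.895, 0.822 and 1.38 TPM in polionotus burrowing brains and 1.24, 1.05 and 0.858 TPM in polionotus control brains, against 0.875, 0.696 and 0.997 TPM in maniculatus burrowing brains and 0.774, 0.941 and 1.19 TPM in maniculatus control brains. Both species covered much the same range. Its species difference in log2(TPM + 1) was 0.09 (95% interval -0.10 to 0.28, limma adjusted p = 0.405 in a fit with no level filter, since Tph2 lies under 1 TPM). Slc6a4 was at 2.48, 1.98 and 3.82 TPM in polionotus burrowing brains and 3.11, 2.52 and 2.63 TPM in polionotus control brains, against 2.36, 2.23 and 2.06 TPM in maniculatus burrowing brains and 2.65, 2.56 and 2.95 TPM in maniculatus control brains. The interval of its difference (0.10) ran from -0.13 to 0.33 (limma adjusted p = 0.43). Fev averaged 1.22 ± 0.222 TPM in polionotus brains, against 1.03 ± 0.173 TPM in maniculatus brains (SD, n = 6 each), a difference of 0.12 in log2(TPM + 1) with an interval from -0.05 to 0.30 (limma adjusted p = 0.218). These intervals leave room for differences as large as the one called for Htr1a. The log2(TPM + 1) scale understates changes of low genes such as these 3 more than those of Htr1a.

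Tph2, Slc6a4 and Fev varied more between libraries of a species than most genes. The coefficient of variation of TPM within species was 20.7% for Tph2, 19.2% for Slc6a4 and 17.7% for Fev, against a median of 8.98% over the tested genes and 5.37% for Htr1a. That median is not matched for level, and all 3 genes were low. Among other low genes of the set it was 16.4% for Htr4, 12.6% for Htr3a and 8.02% for Htr7. With the species means removed, the Pearson correlation over the 12 libraries was 0.74 between Tph2 and Slc6a4, 0.51 between Tph2 and Fev and 0.27 between Slc6a4 and Fev, which share a library and its dissection. Polionotus burrowing replicate 3 had the highest value of all 3 genes and the highest hindbrain sum, 59.8 TPM. Polionotus control replicate 2, with the lowest hindbrain sum, had middling values of Tph2 (1.05 TPM) and Slc6a4 (2.52 TPM). Its Fev value, 1.32 TPM, was below only that of polionotus burrowing replicate 3. Polionotus control replicate 3, with the next lowest hindbrain sum, had Tph2 at 0.858 TPM and Slc6a4 at 2.63 TPM. Its Fev value, 0.858 TPM, was the lowest in *P. polionotus*. What part the dissected tissue had in this spread was not tested.

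**Figure D3:**
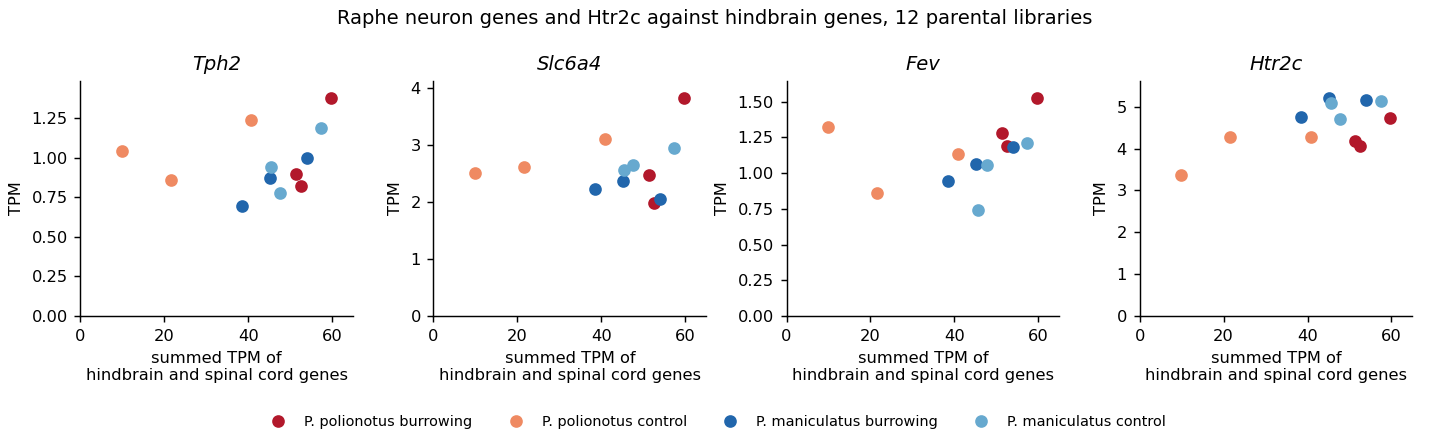
TPM of Tph2, Slc6a4, Fev and Htr2c (vertical axes, from 0) against the summed TPM of 15 hindbrain and spinal cord genes in the 12 parental libraries, coloured by group. Polionotus control replicates 2 and 3 lie at the left with sums of 9.97 and 21.5 TPM. Their Tph2, Slc6a4 and Fev values fall among those of the other libraries. Replicate 2 has the lowest Htr2c, and replicate 3 lies within the range of the other polionotus libraries at 4.27 TPM.

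The remaining receptor genes were not called over both trials. Htr1b, the terminal autoreceptor that also sits on striatal output neurons, averaged 72.4 ± 7.18 TPM in polionotus brains, against 63.2 ± 7.53 TPM in maniculatus brains (SD, n = 6 each; log2 difference 0.20, SE 0.09, limma adjusted p = 0.0883). Beside it, in *P. polionotus* 5 of 8 striatal medium spiny neuron markers passed the test as higher and 0 as lower, with sums of 1512 to 1766 TPM in polionotus brains, against 1030 to 1447 TPM in maniculatus brains, and their part in the Htr1b values was not tested. Htr7, a receptor of thalamic and limbic neurons, averaged 1.39 ± 0.125 TPM in polionotus brains, against 1.53 ± 0.110 TPM in maniculatus brains (log2 difference -0.08, limma adjusted p = 0.204). It passed narrowly with quantile normalization (-0.13, limma adjusted p = 0.0496). Htr4, a receptor of striatal and hippocampal neurons, averaged 0.386 TPM in polionotus brains, against 0.440 TPM in maniculatus brains, with a difference of -0.05 (limma adjusted p = 0.331 with no level filter).

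Within the control trial the same 3 genes were called, Htr1a higher and Htr2c and Htr3a lower in *P. polionotus*, of 7 tested. The background was 39.6% of all genes, 26.8% higher and 12.9% lower, and it became 2827 higher and 2852 lower with quantile normalization or 2746 higher and 2942 lower with median scaling, against 3843 higher and 1853 lower as deposited. The median log2 difference was 0.0091 over the 7 genes and 0.08 over all genes. Htr3a was lower by a log2 difference of -0.47 (SE 0.10, limma adjusted p = 0.00473), Htr2c by -0.27 (SE 0.09, limma adjusted p = 0.0296), and Htr1a was higher by 0.24 (SE 0.06, limma adjusted p = 0.0139). For each of these 3, and for Htr7 (log2 difference -0.15, limma adjusted p = 0.131), the 3 polionotus control libraries lay wholly outside the range of the 3 maniculatus ones. These are 4 of the 7 genes, against 50.1% of all genes tested that did not overlap in this comparison.

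The 2 polionotus control libraries low in hindbrain genes enter this comparison, in which *P. polionotus* had 11 of 14 tested hindbrain genes called lower and 0 higher. Without these 2 libraries, where the lone polionotus control library is assumed to vary like the other groups, Htr3a was still called (-0.53, limma adjusted p = 0.0199), while Htr2c was at -0.18 (limma adjusted p = 0.261) and Htr1a at 0.21 (limma adjusted p = 0.137). Without polionotus control replicate 2 alone Htr2c was at -0.18 (limma adjusted p = 0.0895), and its call was also lost without maniculatus control replicate 2 (limma adjusted p = 0.0838) or replicate 3 (0.0765). With quantile normalization or median scaling Htr1a was at 0.15 and 0.13 and not called, and Htr7 was at -0.20 and -0.21 and was called (limma adjusted p = 0.0392 and 0.033).

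After the burrowing trial 1 of 7 genes was called, Htr3a, lower in *P. polionotus* by a log2 difference of -0.31 (SE 0.10, limma adjusted p = 0.0385). The background was 34.1% of all genes (2876 higher and 2025 lower, the lower ones 14.1%), or 2682 higher and 2614 lower with quantile normalization and 2703 and 2578 with median scaling. The medians were 0.13 over the 7 genes and 0.03 over all. This call was lost in 7 of 12 fits that each left out 1 library, with limma adjusted p from 0.051 to 0.132. These left out polionotus burrowing replicates 1, 2 or 3, maniculatus burrowing replicates 1 or 2, or maniculatus control replicates 1 or 2. The difference was -0.22 without maniculatus burrowing replicate 2 and -0.34 to -0.30 in the 6 others. Htr1a (0.13, limma adjusted p = 0.15) and Htr2c (-0.18, limma adjusted p = 0.127) kept the sign they had in controls without passing. The polionotus and maniculatus burrowing libraries did not overlap for 3 of the 7 genes (Htr3a, Htr2c and Fev), against 50.5% of all genes tested.

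Whether a bout of digging shifts these genes was asked within each species. In *P. polionotus*, 0 of 7 serotonin genes were called between burrowing and control brains, and 0% of all genes were. None of the 7 had an unadjusted p under 0.05, against 446 of all genes. In *P. maniculatus*, 0 of 7 were called against a background of 0.00696% (1 gene), and again none had an unadjusted p under 0.05, against 291 of all genes. The medians were 0.09 over the 7 genes and -0.02 over all genes in *P. polionotus*, and -0.00014 and 0.02 in *P. maniculatus*.

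Burrowing and control libraries did not overlap for 1 of 7 genes in each species, Slc6a4 in *P. maniculatus* and Htr1a in *P. polionotus*, without passing the test; of all genes tested 7.23% did not overlap in *P. maniculatus* and 6.45% in *P. polionotus*. The burrowing libraries of Slc6a4 in *P. maniculatus* (2.36, 2.23 and 2.06 TPM) all lay below its control libraries (2.65, 2.56 and 2.95 TPM). The log2 difference was -0.21 (95% interval -0.53 to 0.11, limma adjusted p = 1). In *P. polionotus* the same gene averaged 2.76 ± 0.952 TPM after burrowing and 2.75 ± 0.312 TPM in controls (SD, n = 3 each), a difference of -0.02 with an interval from -0.34 to 0.30, and of -0.16 (limma adjusted p = 1) without polionotus control replicates 2 and 3. Htr1a in *P. polionotus* was lower in every burrowing library (83 to 92.8 TPM) than in any control library (92.9 to 100.5 TPM), by -0.10 in log2(TPM + 1) with an interval from -0.24 to 0.04 (limma adjusted p = 0.998). Of these 3 control libraries 2 were the ones low in hindbrain genes. All 14 tested hindbrain genes were positive in this comparison (median 0.75), 13 with an unadjusted p under 0.05 and 0 called. Without the 2 libraries the Htr1a difference was -0.078, and with the hindbrain covariate it was -0.048. Without them limma adjusted p was 1 for each of the 9 serotonin genes.

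The difference between the species' responses was tested directly. The interaction called 0 of 7 serotonin genes and 0% of all genes, with an unadjusted p under 0.05 for 0 of the 7 and for 415 genes overall. The widest interval belonged to Slc6a4, whose response in *P. polionotus* minus that in *P. maniculatus* was 0.19 in log2(TPM + 1), with an interval from -0.27 to 0.64. The medians were 0.10 over the 7 genes and -0.05 over all genes.

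In F1 hybrids both alleles sit in the same cells, and the count table shows how reads were divided between them. Reads assigned to an allele totalled 26264699, 28994982 and 22510205 in burrowing hybrids and 11415175, 12595542 and 53906964 in control hybrids, of which 52.6% to 53.1% were on the polionotus allele. Counts of the 6 serotonin genes per animal ran from 58 for Htr3a to 1696 for Slc6a4, both in control hybrids. Levels here are counts scaled to the total of assigned reads (CPM) and are not scaled for length. Apart from Htr1b and Slc6a4, set side by side with the TPM levels above, they are therefore not compared between genes.

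Between trials 0 of 6 genes were called in the hybrids by edgeR's quasi-likelihood test, as were 0% of all 11928 genes; 0 of the 6 and 90 of all genes had an unadjusted p under 0.05, and DESeq2 called 0 of the 6 and 2 of all genes. Tph2 was at 12.1, 16.5 and 11.4 CPM in burrowing hybrids and 10.4, 9.76 and 13.4 CPM in control hybrids. Its groups overlapped, with a log2 fold change of 0.24 (95% interval -0.25 to 0.74, edgeR adjusted p = 0.965). Slc6a4 averaged 27.6 ± 1.55 CPM in burrowing hybrids and 27.1 ± 2.36 CPM in control hybrids (SD, n = 3 each), a fold change of 0.02 with an interval from -0.29 to 0.33. The fold changes of Htr1b (0.05), Htr3a (-0.25), Htr4 (-0.08) and Htr7 (0.01) likewise had intervals that included 0. The medians were 0.02 over the 6 genes and 0.0017 over all genes.

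No serotonin gene had an allele difference that was called: 0 of 6, against 55.7% of all genes, of which 34.2% were higher and 21.5% lower on the polionotus allele. The medians of the log2 ratio of polionotus to maniculatus allele were 0.0042 over the 6 genes and 0.11 over all genes. Slc6a4 was the 1 gene of the 6 with an unadjusted p under 0.05. Its polionotus share was 49.4%, 49.6% and 47.7% in burrowing hybrids and 46.3%, 46.0% and 48.3% in control hybrids. All 6 animals were below 50%, but the 95% Wilson interval of each of the 6 included 50%, and 5 of the 6 included the animal's median share over genes (51.2% to 51.4%). For 5 of the 6 the interval lay below the animal's share of all assigned reads. The mean share was 47.9% ± 1.51 (SD, n = 6 animals), a log2 ratio of -0.12 (interval -0.23 to -0.0079, edgeR adjusted p = 0.0673).

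The allele call depends on how the columns are scaled. Scaling each allele column by TMM gave a median ratio of all genes of -0.07, against 0.11, and 2786 genes called higher and 4215 lower, against 4074 higher and 2567 lower. Under it Slc6a4 (-0.30, edgeR adjusted p = 0.00512) and Htr1b (-0.29, edgeR adjusted p = 0.0135) were called lower on the polionotus allele. Relative to the median of all genes, Slc6a4 lay at a like distance below it under both scalings.

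Htr3a, lower in *P. polionotus* than in *P. maniculatus*, had polionotus shares of 53.8%, 41.3% and 49.5% in burrowing hybrids and 55.2%, 43.1% and 46.6% in control hybrids. Animals lay on both sides of 50%, and with 58 to 204 counts per animal every interval was wide. In burrowing replicate 1, for example, the 95% Wilson interval ran from 43.7% to 63.7%. The mean was 48.2% ± 5.64 (SD, n = 6), a log2 ratio of -0.11 with an interval from -0.42 to 0.20 (edgeR adjusted p = 0.494), while the difference between the species was -0.39 in log2(TPM + 1). The 2 values are on different scales, and their difference was not tested.

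**Figure D4:**
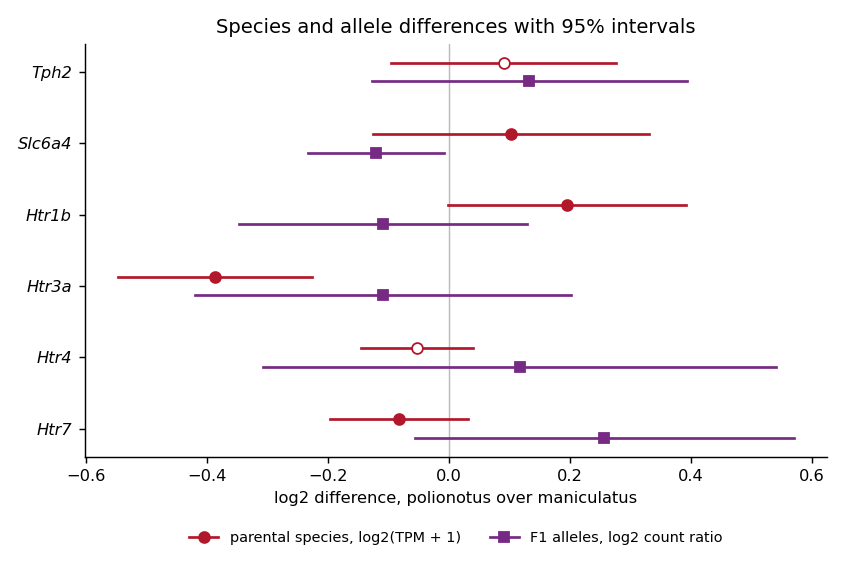
Log2 differences of polionotus over maniculatus with 95% intervals for the 6 serotonin genes found in both tables, between the parental species on the log2(TPM + 1) scale and between alleles in F1 hybrids as a log2 count ratio. Only Htr3a between species was called; open circles mark genes fitted without the level filter, and the scales of the 2 measures differ.

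Htr7 divided the animals. Its polionotus share was 58.8%, 57.7% and 49.9% in burrowing hybrids and 62.2%, 49.6% and 48.4% in control hybrids. The 3 high animals came from both trials, and their 95% Wilson intervals (54.5% to 63.0%, 54.3% to 61.1% and 56.4% to 67.6%) did not reach the shares of the 3 others. The mean of 54.4% ± 5.85 (SD, n = 6) gave a log2 ratio of 0.26 with an interval from -0.06 to 0.57 (edgeR adjusted p = 0.135).

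Tph2, Htr1b and Htr4 had mean polionotus shares near 50%. Tph2 averaged 52.4% ± 4.66 (SD, n = 6; log2 ratio 0.13, edgeR adjusted p = 0.328), with burrowing replicate 1 lowest at 43.8% and the other animals at 52.2% to 57.0%. Fits that each left out 1 animal gave log2 ratios from 0.08 to 0.23. Only the fit without that lowest animal, at 0.23, was called (edgeR adjusted p = 0.0464, against up to 0.601 in the others). Htr1b averaged 48.1% ± 2.46 (log2 ratio -0.11, edgeR adjusted p = 0.379) and Htr4 52.3% ± 8.15 (0.12, edgeR adjusted p = 0.592). The allele ratio did not pass between trials for any of the 6 genes (edgeR adjusted p = 1 for each), and 0 had an unadjusted p under 0.05; the background was 0.226% (27 genes, or 60 with DESeq2, which called 0 of the 6). The medians of this comparison were 0.0093 over the 6 genes and 0.0059 over all genes.

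**Figure D5:**
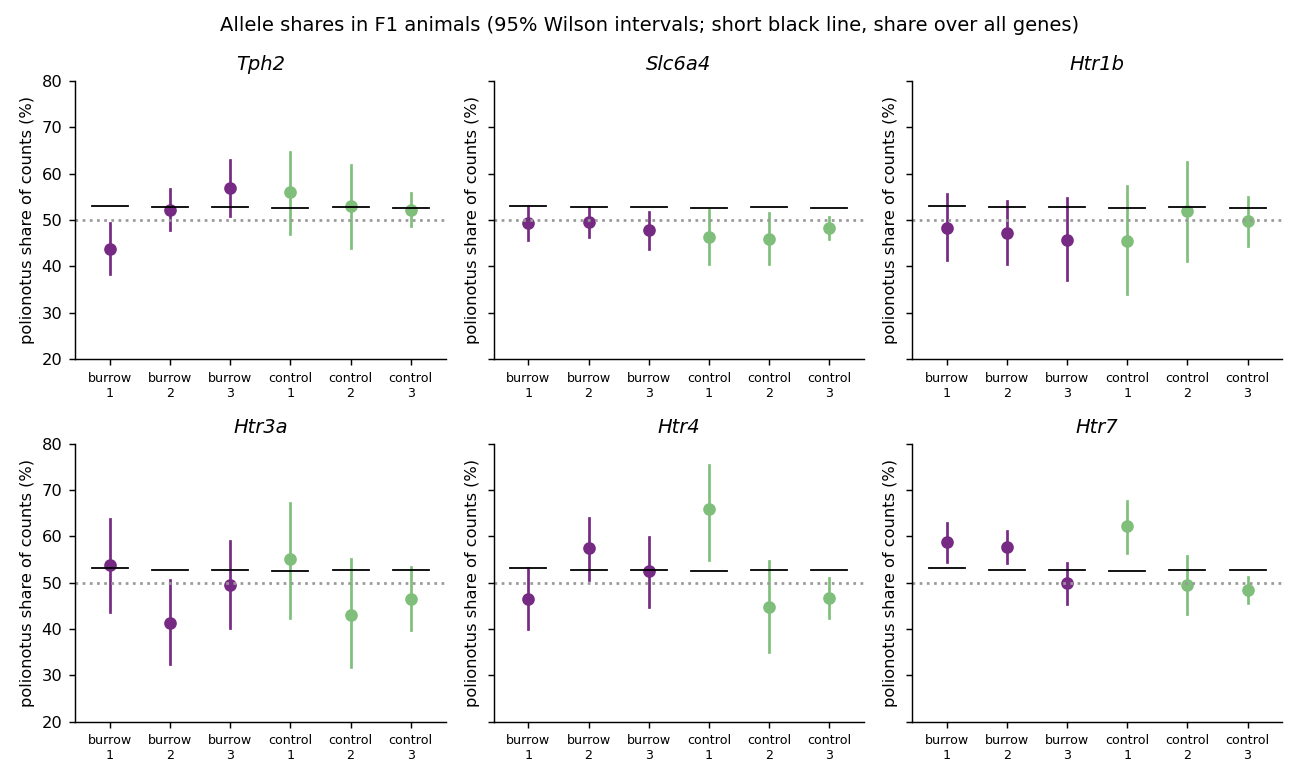
Polionotus share of allele-assigned counts (percent, axis from 20 to 80) in each F1 animal for 6 serotonin genes, with 95% Wilson intervals; the short black line is the animal's share over all genes and the dotted line is 50%. All 6 animals lie below 50% for Slc6a4, and Htr7 shows 3 animals near 60% and 3 near 50%.

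Other genes of serotonin metabolism, transport and reception were also counted. Of 27 listed, 24 were among the parental rows and 16 passed the level filter; over both trials *P. polionotus* had 4 of them higher and 2 lower by the same test, against 32.6% higher and 19.8% lower of all genes. The receptor gene Htr6, abundant in the striatum, averaged 13.6 ± 1.15 TPM in polionotus brains, against 10.03 ± 0.826 TPM in maniculatus brains (SD, n = 6 each; log2 difference 0.41, limma adjusted p = 0.000342). The striatal markers given beside Htr1b moved with it (5 of 8 higher and 0 lower), and their part in the Htr6 result was not tested. Maob, the monoamine oxidase that in the laboratory mouse is found in raphe neurons and glia, averaged 1.55 ± 0.107 TPM in polionotus brains, against 0.881 ± 0.0699 TPM in maniculatus brains (0.44, limma adjusted p = 3.89e-05). Htr5a, an inhibitory receptor gene, averaged 17.4 ± 1.02 TPM in polionotus brains, against 14.1 ± 1.38 TPM in maniculatus brains (0.29, limma adjusted p = 0.00464). Its relative Htr5b went the other way, at 4.05 ± 0.335 TPM in polionotus brains, against 5.20 ± 0.251 TPM in maniculatus brains (-0.30, limma adjusted p = 0.000709).

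The other called genes were a cofactor enzyme and a vesicle transporter. Qdpr, which recycles the cofactor tetrahydrobiopterin, was higher in *P. polionotus* by 0.17 (limma adjusted p = 0.0366), but not with quantile normalization (0.11, 0.178) or median scaling (0.10, 0.245), under a replicate block (0.0537) or in 9 of the 12 fits that left out 1 library (limma adjusted p from 0.0535 to 0.0847). Slc18a2, which loads monoamines into vesicles in serotonin, dopamine and noradrenaline neurons, was lower by -0.21 (limma adjusted p = 0.0125), but not without polionotus control replicates 2 and 3 (-0.17, 0.0791) or with the hindbrain covariate (-0.15, 0.0773). The other 10 genes tested, among them the raphe transcription factor genes Gata2, Gata3, En1 and En2, were not called. The median of the 16 genes was -0.05, against 0.06 over all genes.

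Within control brains *P. polionotus* had 3 of these 16 genes higher (Maob, Htr5a and Htr6) and 1 lower (Htr5b), and after burrowing 2 higher (Maob and Htr6) and 1 lower (Htr5b). Over all genes 39.6% were called in controls and 34.1% after burrowing. In controls the call of Htr5a was lost in 8 of 23 alternatives, that of Htr5b in 4 of 22 and that of Htr6 in 1 of 23, and after burrowing that of Htr6 was lost in 3 of 23. Between trials limma called 0 of the 16 in either species, and 1 in each had an unadjusted p under 0.05. These were Gata3, a raphe transcription factor gene, with 1.06 TPM in burrowing and 1.45 TPM in control brains of *P. maniculatus* (unadjusted p = 0.0173, limma adjusted p = 1), and S100a10, which codes for a partner protein of HTR1B, with 14.3 TPM in burrowing and 11.9 TPM in control brains of *P. polionotus* (unadjusted p = 0.0357, limma adjusted p = 0.998).

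Among the 14 of these genes in the hybrids, 3 were called higher and 2 lower on the polionotus allele, against 34.2% higher and 21.5% lower of all genes. Gata3 had 66.2%, 64.7% and 66.3% of its counts on the polionotus allele in burrowing hybrids and 59.6%, 61.5% and 63.2% in control hybrids (log2 ratio 0.82, edgeR adjusted p = 0.00025). Pts, an enzyme of tetrahydrobiopterin synthesis, had 40.4%, 36.0% and 42.2% in burrowing hybrids and 41.0%, 37.8% and 38.4% in control hybrids (-0.63, edgeR adjusted p = 0.000304). All 6 animals lay on the same side of 50% for both genes. Neither was called between the parental species, where the log2(TPM + 1) difference was 0.07 for Gata3 (limma adjusted p = 0.355) and -0.03 for Pts (limma adjusted p = 0.581).

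The other 3 had larger p. Aldh2, an aldehyde dehydrogenase that acts after monoamine oxidase, averaged 68.1% ± 12.8 (SD, n = 6; log2 ratio 1.16, edgeR adjusted p = 0.0151). Gch1, the first enzyme of tetrahydrobiopterin synthesis, averaged 63.0% ± 11.9 (0.77, edgeR adjusted p = 0.0451), and the receptor gene Htr1f 46.8% ± 2.40 (-0.19, edgeR adjusted p = 0.0449). The calls of Gch1 and Htr1f were lost in 4 and 5 of the 6 fits that left out 1 animal. The edgeR adjusted p without burrowing replicates 1, 2 and 3 and control replicate 1 was 0.0942 to 0.111 for Gch1, and it was 0.0715 to 0.113 for Htr1f without every animal but control replicate 1. Between trials in the hybrids edgeR called 0 of the 14, with 0 at an unadjusted p under 0.05.

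Genes whose levels moved most like each serotonin gene were ranked by Pearson correlation over the 12 parental libraries, after the mean of each species was removed, among up to 9668 named genes that averaged 5 TPM or more. Htr2c was nearest to Rbm7 (r = 0.97), Hnrnpll (0.96) and Nicn1 (0.96), and Pdp1 (0.92) and Fzd1 (0.91) were among the nearest to Htr1b. Htr3a was nearest to Apmap (0.92), Ahcy (0.87) and Rpp38 (0.83), and Htr1a to Vgll4 (0.85), Atp6v1f (0.83) and Gmppb (0.82). Slc6a4 was nearest to Ppil3 (0.87), Fev to Neu3 (0.87) and Htr7 to Dhdh (0.88). These are the largest of many correlations over libraries that share dissection and scaling, and they are given as descriptions.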

How the data were processed

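Whole-brain RNA of 18 animals was profiled with a stranded poly(A) kit, per the labels' protocols. The authors deposited TPM per gene for the 12 parental libraries and whole-number counts per gene and allele for the 6 hybrids, which were treated as 1 animal each. STAR 2.4.2a is named in the submitters' processing notes; the sources used here do not give the genome build, annotation, TPM method or rule for assigning reads to alleles, and no coordinates are printed. A row that names no gene (0.789% to 2.48% of summed TPM) was left out. TPM keep no depth, so parental precision is known from the spread between libraries alone; allele-assigned counts were 11415175 to 53906964 per hybrid. Within groups, Spearman correlations across genes were 0.988 to 0.996, and at most 0.104% of genes held identical values.

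Parental values were tested with limma 3.58.1 (R 4.3.3, mean trend) on log2(TPM + 1), a scale that understates changes of low genes, for genes averaging 1 TPM or more, with 1 mean per group over the 12 libraries. Hybrid counts were tested with edgeR 4.0.16 (quasi-likelihood F test): summed over alleles with TMM between trials, and per allele with the animal as a block, both alleles' sum as library size and a minimum mean of 20 counts. Standard errors for edgeR were derived from its p-values. Tests were two-sided, and p-values were adjusted over all genes of a comparison. Wilson intervals cover counting error only. The tests were checked on simulated data. DESeq2 1.42.0 was an alternative.

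Members and lists were chosen with earlier results of these data known. All members were named where a table holds them; other pathway genes were named where called or, where none was, by smallest p. A gene that the likeness ranking named is not reported here. P-values measure the spread between these animals.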

Additional observations from a re-analysis of the deposited data

Results flagged for a closer look

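In 1 of 30 groups of values examined, a single animal stood apart from the others of its group. The polionotus share of Tph2, the gene of the raphe serotonin synthesis enzyme, was 43.8% in F1 burrowing replicate 1, against 52.2% in the nearest and 57.0% in the highest of the other 5 hybrids. The gap was 0.64 of the whole range, above the critical value of 0.625 for 6 values. Chance flags about 1 in 20 groups. The animal's 95% Wilson interval was 38.4% to 49.3% from 315 counts, and it covers counting error only.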

How the results depend on the processing

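Of 1368 alternative values of the serotonin genes, 1267 kept direction and side of the threshold, 19 lost a call, 7 gained one and 75 changed sign, each of the 75 uncalled before and after. Htr3a over both trials and in controls was called in every alternative that kept it (-0.57 to -0.16 and -0.69 to -0.19 on the log2 scale). The 5 TPM minimum removed Htr3a and others and left 1, 1 and 0 serotonin genes called over both trials, in controls and after burrowing. Without polionotus control replicates 2 and 3, controls gave 2728 genes and 1 serotonin gene, Htr3a; with the hindbrain covariate they gave 2436 genes and 1 serotonin gene, and burrowing brains gave 2, Htr2c (-0.23, limma adjusted p = 0.0358) beside Htr3a. Between trials *P. maniculatus* had 0 genes with a pseudocount of 0.1, a 5 TPM minimum or its own groups alone, and *P. polionotus* 3 with no filter. The interaction had 1 gene with a pseudocount of 5 or no filter. DESeq2 called 2 genes between hybrid trials and 60 for the allele ratio between trials. TMM over allele columns called 2 serotonin genes.

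Sign changes among uncalled values were as follows. In controls Slc6a4 was -0.054 with quantile and -0.066 with median scaling. In *P. maniculatus* between trials, quantile and median scaling gave -0.013 and -0.025 for Htr1a and -0.014 and -0.014 for Htr2c, quantile scaling gave -0.0016 for Htr4, and the hindbrain covariate gave 0.0054 for Htr1b. In *P. polionotus* the covariate gave -0.12 for Htr2c. In the interaction the covariate gave -0.15 for Htr2c, -0.056 for Slc6a4 and -0.18 for Tph2, and leaving out polionotus control replicates 2 and 3 gave -0.0077 for Htr2c and -0.068 for Tph2. TMM over allele columns gave -0.060 for Htr4 and -0.044 for Tph2, and limma on log ratios between trials gave -0.0039 for Htr3a and -0.021 for Htr4. The cause of these changes was not tested.

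Leaving out 1 library at a time also changed some signs or counts, over these ranges. In controls they were Fev (-0.024 to 0.16), Slc6a4 (-0.058 to 0.053) and Tph2 (-0.014 to 0.14). After burrowing they were Htr4 (-0.073 to 0.017), Htr7 (-0.068 to 0.018) and serotonin genes called (0 to 1). Between trials in *P. maniculatus* they were Fev (-0.049 to 0.12), Htr1a (-0.034 to 0.042), Htr1b (-0.10 to 0.12), Htr2c (-0.019 to 0.048), Htr4 (-0.040 to 0.065), Htr7 (-0.071 to 0.010) and genes called (1 to 6), and in *P. polionotus* Htr3a (-0.014 to 0.16), Slc6a4 (-0.22 to 0.13), Tph2 (-0.14 to 0.056) and genes called (0 to 2). In the interaction they were Htr1b (-0.019 to 0.20), Htr2c (-0.0052 to 0.13), Htr4 (-0.025 to 0.081), Slc6a4 (-0.0069 to 0.34), Tph2 (-0.053 to 0.14) and genes called (0 to 2). In the hybrids they were Htr1b (-0.030 to 0.18), Htr4 (-0.16 to 0.024), Htr7 (-0.12 to 0.11) and Slc6a4 (-0.017 to 0.12) between trials, Htr4 (-0.022 to 0.20) and serotonin genes called (0 to 1) between alleles, and Htr3a (-0.15 to 0.21), Htr4 (-0.19 to 0.37), Htr7 (-0.028 to 0.38), Tph2 (-0.32 to 0.052) and genes called (10 to 73) for the allele ratio between trials.

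Replicate numbers were not taken as pairs, because no 2 groups compared had all 3 same-number correlations over 0.1. In *P. maniculatus* each number correlated best with its own (0.25, 0.13 and 0.099), so pairing in that species is not excluded. Under a replicate block 7764, 5927, 5171, 1, 0 and 0 genes were called over both trials, in controls, after burrowing, between trials in *P. maniculatus* and *P. polionotus* and in the interaction, and 0 between hybrid trials; the numbers of serotonin genes called did not change. Without the animal term 4679 genes differed between alleles. Fits on the groups compared alone do not exist for the comparison over both trials and the interaction, which use all 4 groups. Of 346 alternative values of the other pathway genes named, 305 kept their call and 41 lost it. Depth limits the hybrid values of Htr3a, Htr1b and Htr4 most.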

Other observations

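Several other serotonin pathway genes had allele shares that differed widely between hybrid animals: for each gene below, the 95% Wilson intervals of the lowest and the highest animal did not overlap. Qdpr, which recycles tetrahydrobiopterin, had polionotus shares of 50.1%, 11.2% and 49.5% in burrowing hybrids and 85.5%, 84.5% and 48.1% in control hybrids, from 1476 to 7490 counts per animal. Aldh2 had 73.2%, 42.0% and 73.7% in burrowing hybrids and 72.4%, 73.3% and 73.8% in control hybrids. The receptor gene Htr5a had 37.7%, 83.7% and 69.1% in burrowing hybrids and 37.9%, 52.5% and 63.6% in control hybrids. The receptor gene Htr1d had 32.8%, 31.4% and 76.7% in burrowing hybrids and 36.8%, 79.3% and 75.7% in control hybrids, from 29 to 111 counts. These 4 genes were chosen after their values were seen. In Gata2, En1, Tph2, Htr4 and Htr7 the intervals of the lowest and the highest animal did not overlap either. How common this is among all genes was not counted.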
